A study of Mus musculus with 2 samples.

Results

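The distal microRNA cluster of the imprinted Dlk1-Dio3 locus runs from Mir379 to Mir3072, just past Mir410. Its members were chosen by position alone: genes of type miRNA in GENCODE M21 on the plus strand of chromosome 12 that lie wholly within 109709060 to 109747960 (mm10). This rule gave 39 of the 2202 microRNA genes counted in each library. The libraries hold small RNAs under 30 bases from left cortex of female B6CASTF1/J pups aged 4 days, an F1 cross of C57BL/6J and CAST/EiJ. There is 1 group of 2 biological replicates, each a numbered animal with 1 library, and both carry the same donor record. No treatment or modified allele is given in the labels, and without a second group no test between conditions was run. The counts carry no allele information, so parental origin was not measured.

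The cluster is a large array of microRNA hairpins made in placental mammals from the maternally inherited chromosome, where it lies downstream of the noncoding genes Meg3 and Rian and partly within Mirg. Its hairpins are thought to be cut from long precursor transcripts, so that their primary transcription is shared while processing and stability act on each one. In neurons the array is known to be induced by the activity-dependent factor Mef2. Several members act in dendrite growth, spine size and the migration of newborn cortical neurons.

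Both arms of a hairpin can give a mature microRNA, and bases 2 to 8 of the mature strand, the seed, do most of the target recognition. The counts add both arms, so the arm in use was not measured. RefSeq (GRCm38.p6) held a mature entry for 38 of the 39 members, 71 arms in all, and 36 hairpins that matched the start and end in M21. For 5 members RefSeq held only 1 arm. Mir487b is among them, so only its 5′ arm is shown. The annotated arms of the 5 most abundant members are shown because these genes carry most of the cluster's reads, with seeds in capitals.
miR-382-5p: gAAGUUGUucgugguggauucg
miR-382-3p: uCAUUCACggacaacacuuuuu
miR-487b-5p: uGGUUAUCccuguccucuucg
miR-411-5p: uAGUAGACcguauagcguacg
miR-411-3p: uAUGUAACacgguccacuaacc
miR-379-5p: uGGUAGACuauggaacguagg
miR-379-3p: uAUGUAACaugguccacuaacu
miR-541-5p: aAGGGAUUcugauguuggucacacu
miR-541-3p: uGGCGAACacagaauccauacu

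Among the arms in RefSeq, seeds were mostly not shared within the cluster, with 65 distinct seeds over the 71 arms and 6 seeds held by more than 1 member. The missing arms of the 5 members with 1 arm could not be compared, so seeds shared through them are not counted. The 3′ arms of Mir379 and Mir411 share the seed AUGUAAC, and the 5′ arms of Mir379 and Mir1193 share GGUAGAC. The other shared seeds join Mir376b with Mir376c, Mir494 with Mir410, Mir453 with Mir496a, and Mir758 with Mir1197. Longer words recur as well. The word GGUUGACC, shown in capitals below, stands in arms of 5 members. It takes in the whole seed of miR-1197-5p and miR-758-5p, starts within that of miR-380-5p and of miR-134-5p, and lies beyond that of miR-154-3p.
miR-380-5p: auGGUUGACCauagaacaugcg
miR-1197-5p: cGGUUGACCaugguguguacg
miR-758-5p: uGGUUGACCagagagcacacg
miR-134-5p: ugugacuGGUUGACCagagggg
miR-154-3p: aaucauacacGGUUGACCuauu

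Of all 1738 mature mouse entries searched as written, 5 (0.288%) hold that word, and these are the 5 shown. A search for every 8-base word found in 3 or more members led to it, so it was picked from these sequences and is a description of them. Another such word, GGUCCACU, stands in 3′ arms of Mir379, Mir411, Mir758 and Mir412, again the 4 entries (0.230%) that hold it. The 5′ arms of the 3 Mir376 hairpins hold CCUUCUAU, in capitals here, and only the first pair also share a seed.
miR-376c-5p: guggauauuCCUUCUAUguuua
miR-376b-5p: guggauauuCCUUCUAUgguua
miR-376a-5p: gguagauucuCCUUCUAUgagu

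Replicate 1 held 3555469 counts on the annotated strand of microRNA genes and replicate 2 held 2761003, and levels are given in counts per 1000000 of these totals (CPM). A count of 0 allows up to 3 counts, 0.844 CPM in replicate 1 and 1.09 CPM in replicate 2. Of 16 markers of cortical neurons, 12 were at 2 CPM or more in both libraries, and the list together held 9.31% and 7.10% of counts. Reads mapped to several places are counted in no gene, and many of these markers are copies, such as those of Mir124a and Mir9. Reads shared by copies would be lost, so markers not detected cannot be called absent and the shares are uncertain. The 6 markers of liver and striated muscle held 0.00984% and 0.00927%, with the copies of Mir1a and Mir133a at 0. Reads shared by those copies would be lost in the same way, so their 0 does not show that muscle RNA was absent. The 5 markers of hindbrain and spinal cord held 0.00678% and 0.00786%. In bulk tissue, fewer cells of a type and less RNA per cell cannot be told apart.

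The cluster held 284534 counts in replicate 1, or 8.003% of all microRNA counts (95% Wilson interval 7.97 to 8.03), and 183805 in replicate 2, or 6.66% (6.63 to 6.69). The mean share was 7.33% ± 0.951 (SD, n = 2). At 2 CPM or more in both libraries, 36 of 39 members were detected, beside 20.4% of all 2202 microRNA genes. Of the 39 members, 11 were among the 100 most abundant genes, beside 4.54% of all genes, and 12 members averaged 1000 CPM or more, against 4.86% of all genes. The median level was 446 CPM over the 36 detected members and 73.2 CPM over the 414 other detected genes. The members thus lay high as a group, but they spanned a 2402-fold range of mean CPM between the highest and lowest detected member. Reads mapped to several places are counted in no gene. Of all 2202 genes, 46.9% share 22 bases with a hairpin elsewhere, beside 2 of the 39 members. The effect of this on the share, ranks and medians given here was not tested.

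**Figure D1:**
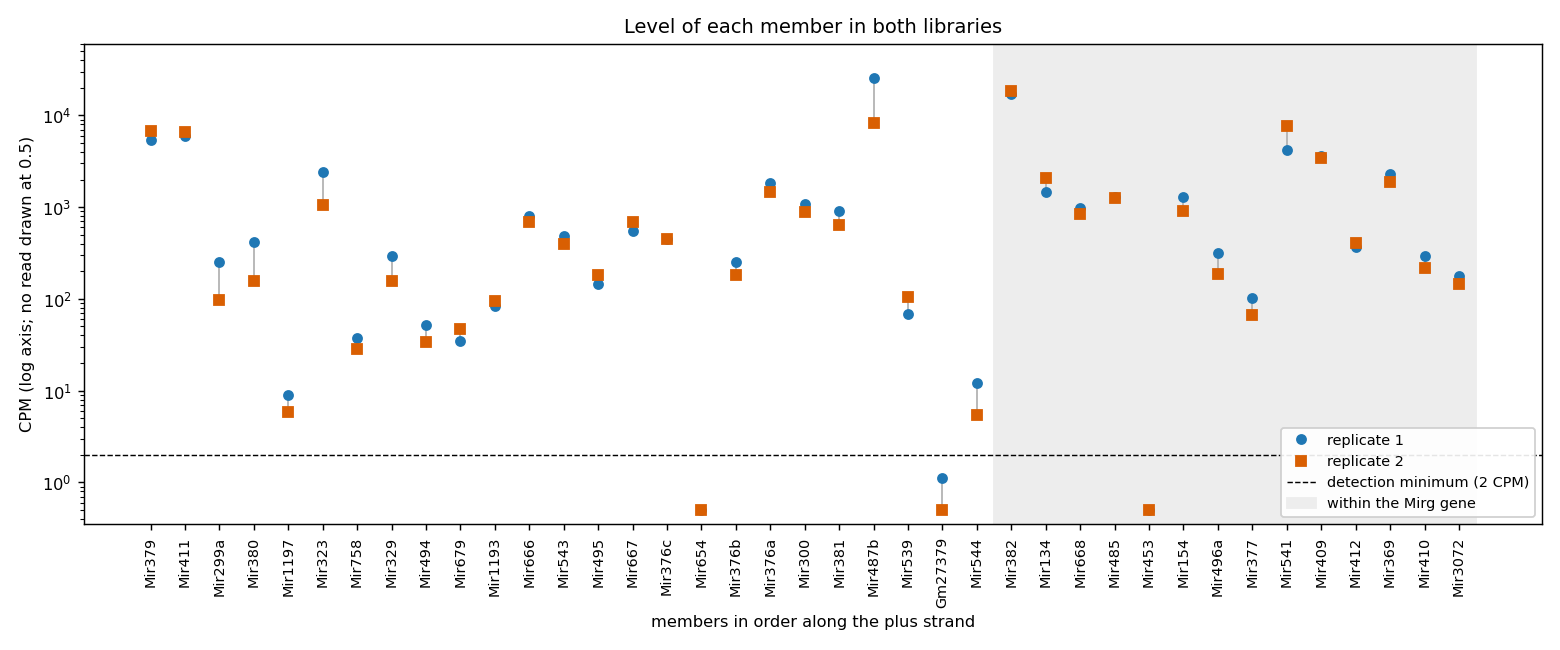
CPM of each of the 39 members (log axis) in order along the plus strand, circles for replicate 1 and squares for replicate 2, with a member without reads drawn at 0.5 and the members within Mirg shaded. Some adjacent members differ by orders of magnitude, such as Mir1197 and Mir323, while others, such as Mir379 and Mir411, lie close, and 36 members stand above the 2 CPM line in both.

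Mir382 and Mir487b led the cluster, and their order changed between the animals. Mir382 (chromosome 12, 109733771 to 109733846, overlapping the edge of a Mirg exon) stood at 16938 CPM in replicate 1 and 18599 in replicate 2. It held 21.2% and 27.9% of the cluster's counts. Mir487b (109727333 to 109727414, outside any annotated host gene) stood at 25233 CPM in replicate 1 and 8251 in replicate 2. It held 31.5% and 12.4% of the cluster's counts, so its mean of 16742 ± 12008 CPM describes neither library well. Mir382 was alike in both animals, whereas Mir487b differed most of the 34 members with at least 100 counts over both libraries.

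Mir411 and Mir379 open the array within 1.2 kb of each other and had close levels. Mir411 (109710175 to 109710256) had 5899.6 and 6576 CPM in replicates 1 and 2, and Mir379 (109709060 to 109709125) had 5326 and 6756. The ranges of both genes overlap, so their order was not resolved. Mir541 (109742409 to 109742498, in a Mirg intron) came next with 4232 and 7588 CPM. These 5 genes were the 5 highest in each library and together held 72.0% of the cluster's counts in replicate 1 and 71.8% in replicate 2 (mean 71.9% ± 0.179). The 10 highest held 86.6% ± 0.0168 and the 15 highest 93.5% ± 0.0305. These larger sets were taken by mean level, and 14 of the 15 highest genes of one library were among the 15 highest of the other. The same 5 genes thus led in both animals, although their order differed.

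**Figure D2:**
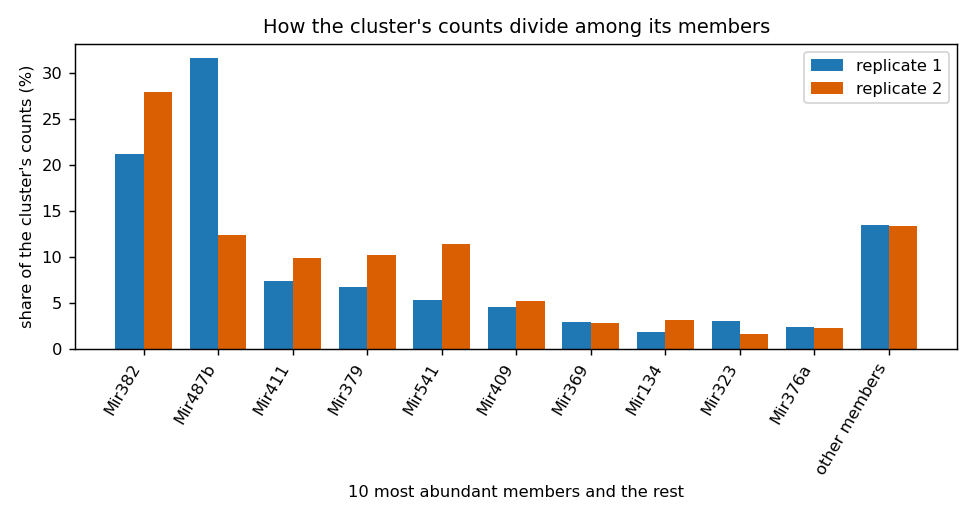
Share of the cluster's counts (%) held by the 10 most abundant members and by the other 29 together, blue for replicate 1 and orange for replicate 2, 1 library each. Mir487b takes 31.5% of replicate 1 and 12.4% of replicate 2, while Mir382 and Mir541 take more of replicate 2.

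Mir134, Mir329, Mir381 and Mir485 have known roles in dendrites and synapses. Mir134, which limits spine size through the kinase gene Limk1 and acts on the translational repressor Pum2, had 1456 CPM in replicate 1 and 2084 in replicate 2. Mir381, which with Mir134 and Mir329 is needed for activity-dependent dendrite growth, had 904 and 645 CPM. Mir329 had 293 and 155 CPM. Replicate 2 was thus higher for Mir134 and lower for Mir381 and Mir329. Mir485, known to act on the synaptic vesicle gene Sv2a, had 1277 and 1254 CPM, a difference of less than the counting error.

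Mir369, Mir496a and Mir543 are known regulators of N-cadherin in cortical neurogenesis and migration. Mir369 had 2305 CPM in replicate 1 and 1869 in replicate 2. Mir543 had 482 and 401 CPM, and Mir496a had 314 and 187. All were higher in replicate 1, and their order was the same in both libraries.

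Of the 3 Mir376 hairpins, whose precursors are known substrates of adenosine deaminases in brain, Mir376a was the most abundant. It had 1841 CPM in replicate 1 and 1462 in replicate 2. Mir376c had 448 and 455 CPM and Mir376b 253 and 184. An edited read carries a mismatch to the genome, and the effect of that on the counts was not tested. Mir376b and Mir376c share 22 bases with each other, the only members that share this many with a hairpin elsewhere (46.9% of all 2202 genes do), so their counts are uncertain.

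The rest of the 15 most abundant members were Mir409, Mir323, Mir154, Mir300 and Mir668. Mir409 had 3640.3 CPM in replicate 1 and 3439 in replicate 2, and Mir323 had 2439.6 and 1048. Mir154 had 1274 and 917 CPM, Mir300 1078 and 888, and Mir668 989 and 845. Of these, Mir323 alone differed by 2-fold or more between the animals. Dividing CPM by hairpin length left the same 15 members on top. Small RNA reads span the mature strand, so CPM was not divided by hairpin length elsewhere.

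By mean level, 16 detected members averaged between 100 and 1000 CPM (Mir300 and Mir668 among them) and 8 averaged less than 100. Mir410, the member that names the distal end, had 297 CPM in replicate 1 and 216 in replicate 2. Mir3072, the last member by position, had 179 and 144. Mir494 had 52.0 and 33.7 CPM, and Mir1193 had 83.3 and 94.2. The detected members nearest the minimum were Mir758 (37.4 and 28.6 CPM), Mir544 (12.1 and 5.43) and Mir1197 (9.0 and 5.79). Below it lay Gm27379, with 4 reads in replicate 1 and 0 in replicate 2, and Mir654 and Mir453, with 0 reads in both. Over the order of mean levels, 26 of 35 neighbouring pairs of detected members had overlapping ranges over the 2 libraries. Some of these pairs still kept the same order in each library, such as Mir154 (1274 and 917 CPM) above Mir300 (1078 and 888). Overlap of ranges thus does not tell how many neighbours changed order between these 2 animals.

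Genes that share a seed could stand at different levels. Mir379, at 5326 and 6756 CPM, has its 5′ seed in common with Mir1193, at 83.3 and 94.2 CPM. Mir496a shares its 5′ seed with Mir453, which had no read. Mir379 and Mir411, with a common 3′ seed, had overlapping levels and together held 14.0% of the cluster's counts in replicate 1 and 20.0% in replicate 2. The arm counted is unknown, so these sums are of genes and not of seeds.

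The levels showed little order along the array. The members span 38.9 kb, with a median gap of 556 bases and a range of 20 to 4368. By annotation, 25 members lie in no plus-strand host gene and 14 within Mirg, of which 4 are inside an exon, 5 overlap an exon edge and 5 are intronic. Those before Mirg held 58.3% of the cluster's counts in replicate 1 and 43.5% in replicate 2, and those within Mirg 41.7% and 56.5%. The Spearman correlation of mean CPM with distance from Mir379 was 0.18 over the 36 detected members. It was 0.06 with the GC content of the hairpin, -0.09 with its length and -0.10 with its folding energy per base. These are descriptions across genes of the same libraries, all weak, and members are not replicates. Hairpin GC content had a median of 43.6% (29.1 to 72.3), against 50.9% over the other 2163 genes.

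Between the animals the members moved in both directions. Ratios are log2 of replicate 2 over replicate 1, with TMM library scaling (trimmed mean of M-values) and 95% exact counting intervals. For the 34 members whose counts summed to at least 100, the median was -0.29 and the SD 0.59. Over all 308 genes passing that minimum, the median was -0.09 and the SD 1.01, with ratios from -6.67 to 4.83. The median size of the ratio, with its sign ignored, was 0.37 for the members and 0.33 for all genes. The smaller SD of the members thus does not mean that their typical ratio was smaller. Of the 34 members, 22 were below 0 (55.5% of all genes were), and 20 had intervals wholly below 0 (44.5% of all genes). Intervals wholly above 0 were found for 9 members (33.4% of all genes). Of the members, 4 were at least 2-fold higher in replicate 1, or 11.8%, beside 11.0% of all genes. None was 2-fold higher in replicate 2, beside 4.87% of all genes. The 2-fold counts in replicate 1 are thus near the share for all genes, and 1 library per animal gives no test of any of these ratios.

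The 4 members past 2-fold were Mir487b, Mir380, Mir299a and Mir323. Mir487b had 89716 counts in replicate 1 and 22782 in replicate 2, 3.09-fold higher in the first (log2 ratio -1.63, interval -1.65 to -1.61). Mir380 had 1480 and 434 counts (-1.42, -1.58 to -1.27), and Mir299a had 894 and 266 (-1.40, -1.60 to -1.20). Mir323 had 8674 and 2894 counts (-1.24, -1.30 to -1.18). Just inside the threshold stood Mir329, with a log2 ratio of -0.94 (-1.10 to -0.77). These intervals cover counting error only. The arms of these 4 genes held in RefSeq, with seeds in capitals, have no seed in common with each other or with such an arm of another member.
miR-299a-5p: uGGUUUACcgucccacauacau
miR-299a-3p: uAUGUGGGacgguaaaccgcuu
miR-380-5p: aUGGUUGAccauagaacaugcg
miR-380-3p: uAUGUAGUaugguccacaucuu
miR-323-5p: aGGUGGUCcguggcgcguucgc
miR-323-3p: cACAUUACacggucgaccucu
The seed of miR-487b-5p is shown with the leading members above. The 3′ arm of Mir487b was not in RefSeq, so that seed was not compared.

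In the other direction the largest ratio was that of Mir541, with 15047 counts in replicate 1 and 20951 in replicate 2 (log2 ratio 0.83, 0.79 to 0.86). Mir539 followed with 242 and 292 counts (0.62, 0.37 to 0.87), and Mir134 with 5176 and 5754 (0.50, 0.45 to 0.55). Mir379 had a ratio of 0.33 (0.30 to 0.36) and Mir382 of 0.12 (0.10 to 0.13). Across the 34 members log2(CPM + 1) had a Pearson correlation of 0.97 between the libraries, a description across genes, so the order of levels was largely kept while single genes moved by up to 3.09-fold.

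**Figure D3:**
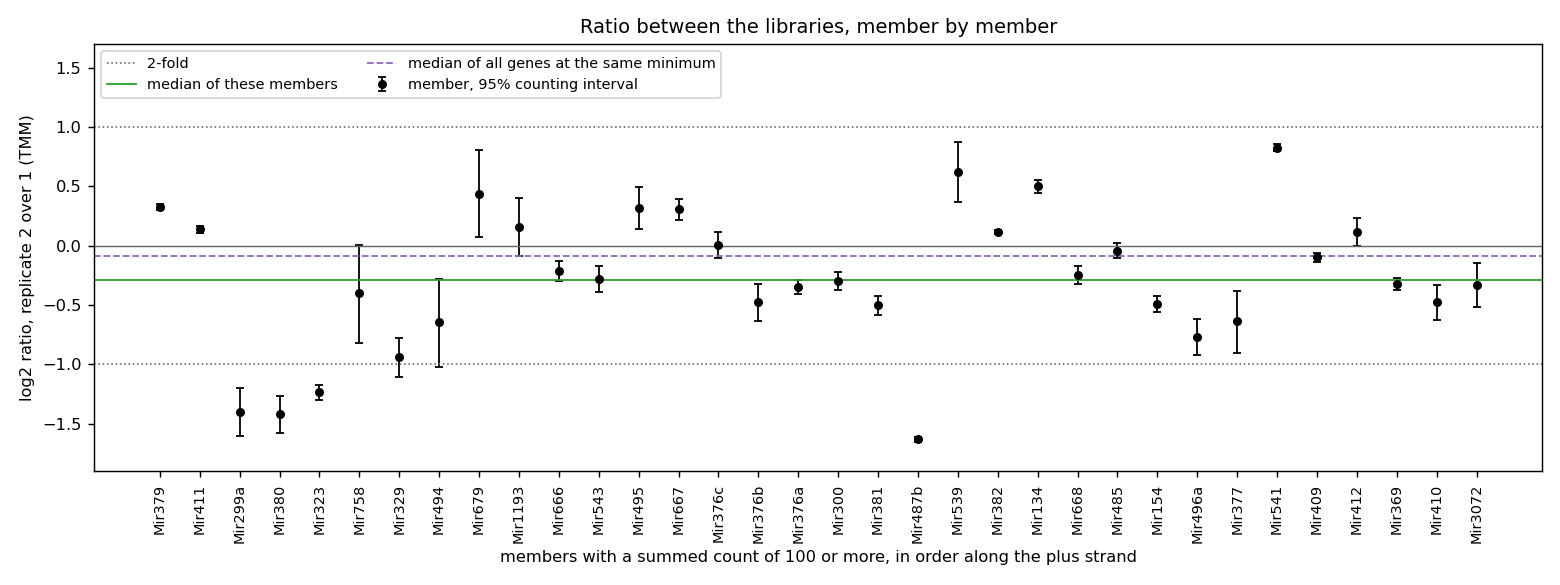
Log2 ratio of replicate 2 over replicate 1 (TMM) with 95% counting intervals for the 34 members whose counts summed to at least 100, in order along the plus strand. The median of -0.29 lies below that of all genes (-0.09), Mir487b, Mir380, Mir299a and Mir323 lie past the lower 2-fold line, and no member reaches the upper one.

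Of the 4 genes past 2-fold, Mir299a, Mir380 and Mir323 lie close together. The 7 members in a row from Mir299a to Mir494, over 4.76 kb, all had ratios below 0, from -1.42 for Mir380 to -0.40 for Mir758. In 5 of them the counting interval was wholly below 0, and in Mir758 and Mir1197 it reached above 0. Mir1197 had 48 counts over both libraries, under the minimum of 100 used for the other ratios. Of all 308 genes passing that minimum, 55.5% had ratios below 0 and 44.5% had intervals wholly below 0. Mir379 and Mir411, just before this stretch, were above 0, as were Mir679 and Mir1193 just after it. This stretch was picked from the ratios, and its values are a description of these 2 libraries. Mir487b lies apart from it, and its neighbours Mir381 and Mir539 had ratios of -0.50 and 0.62.

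The lower share of the cluster in replicate 2 rested on Mir487b. Leaving it out of the cluster and of the total, a step chosen after the values were seen, gave 5.62% in replicate 1 and 5.88% in replicate 2. The log2 ratio of the summed counts was -0.28 with it and 0.07 without it. The median ratio over members was -0.28 without it. The sum and the median thus differ in direction once that gene is left out.

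**Figure D4:**
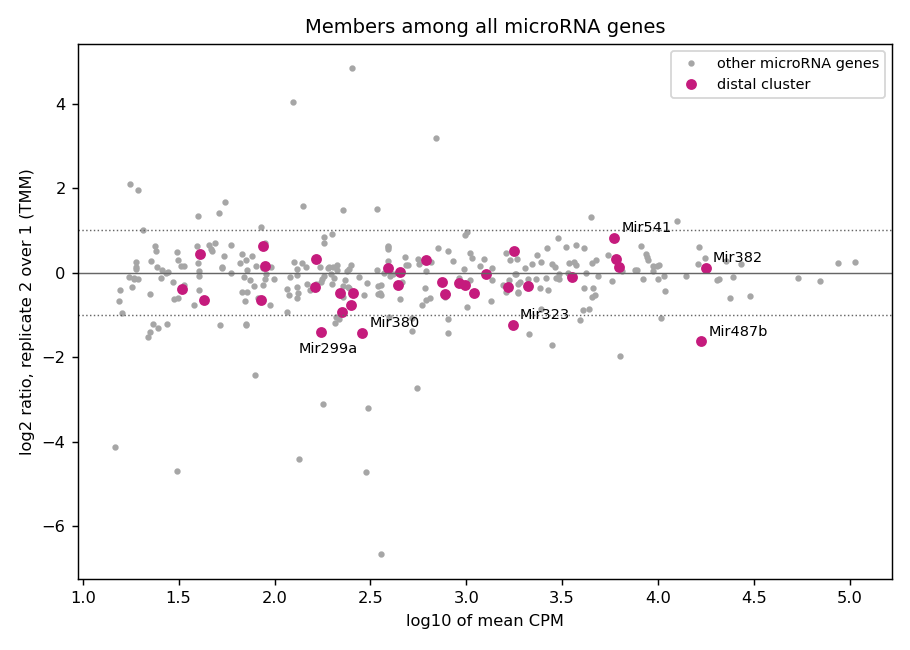
Log2 ratio of replicate 2 over replicate 1 (TMM) against log10 of mean CPM for the 308 microRNA genes whose counts summed to at least 100, members in magenta and others in grey. The members lie within the cloud of other genes, between -1.63 and 0.83, and Mir487b stands lowest of the members.

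Markers of some cell types differed between the same libraries, while those of microglia and leukocytes were close. The 6 markers of epithelium and choroid plexus held 0.322% of counts in replicate 1 and 0.0832% in replicate 2, with 5 detected and none at 0. A single marker could differ more than its list: Mir200b, of this list, had 711 CPM in replicate 1 and 6.88 in replicate 2. Mir451a, of the red cell list, went the other way, with 16.9 and 491 CPM. The 3 red cell markers held 0.00602% and 0.0550%, and the 3 vessel markers 1.63% and 2.38%, all detected. The 16 neuron markers held 9.31% and 7.10%, with none at 0 and with the limit on copies given above. The 4 markers of microglia and leukocytes held 0.0514% and 0.0472%. Their part in the ratios of the members was not tested.

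The proximal microRNAs of the same imprinted locus were set beside the cluster as sums. The 6 genes opposite the imprinted gene Rtl1 held 3.43% of counts in replicate 1 and 3.91% in replicate 2, and the 9 before Rtl1 held 2.02% and 2.45%. The 5 between Rtl1 and Mir379 held 0.493% and 0.421%. The distal cluster thus gave 57.4% of the locus in replicate 1 and 49.5% in replicate 2. The median log2 ratio was 0.08 over 5 genes opposite Rtl1 and 0.12 over 6 genes before it. It was -0.03 over 3 genes between Rtl1 and Mir379, whose log2 ratio of summed counts was -0.24, and -0.29 over the distal cluster, whose sums gave -0.28. None of the tested genes in those proximal groups was 2-fold apart. The difference between these parts was not tested.

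Reads of the cluster lay on the plus strand. In 5 members a microRNA gene is annotated on the minus strand opposite the hairpin: Mir299a faces Mir299b, Mir380 faces Gm25750, Mir376a faces Gm25252, Mir539 faces Gm44322 and Mir409 faces Gm24321. These minus-strand genes had 0 reads on their own strand in both libraries, which allows up to 0.844 and 1.09 CPM. The other 34 members had 1 read on the opposite strand in all. When strand was not used, all 5 members fell to 0 because their reads became ambiguous. They held 7.83% ± 0.0942 of the cluster's counts.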

How the data were processed

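Each library has 1 deposited table of raw counts, whole numbers for each microRNA gene, without column names. The build (mm10) and annotation (GENCODE M21) are named in a text file that the authors deposited beside each table. The trimming, mapping and counting tools are not given in the sources used here. Of the 3 value columns, the second was read as the annotated strand, from the layout and values, and it supplied every count here. Reads mapped to several places (45.8% and 41.0% of all reads) are in no gene. Unmapped reads made up 19.3% and 25.6% and reads outside microRNA genes 4.50% and 5.63%, all left out of library sizes.

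CPM was computed here as counts over each library's summed microRNA counts, with nothing added and no further scaling. Log2 ratios used 0.5 added to each count and TMM factors from edgeR 4.0.16. These steps were run on simulated counts with counting error only, so that run does not cover the wider spread between these libraries. Wilson and Clopper-Pearson intervals (95%, scipy 1.17.1) cover counting error only, since amplified reads are not independent molecules. Between the libraries, 240 of 308 genes differed beyond it. Hairpins of M21 were searched for shared words of 22 bases, aligned with biopython 1.88 and folded with RNAfold 2.7.2. The members, lists and tests were chosen with earlier results of these data known. Named genes were the 15 most abundant members, those 2-fold apart, those sharing a seed, those nearest the minimum, and the first and last. Other members named were picked after their values were seen. Alternatives covered strand, scaling, count minimum, detection minimum, added count and left-out libraries.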

Additional observations from a re-analysis of the deposited data

How the results depend on the processing

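The share of the cluster ranged from 6.66% to 8.003% with either library left out, and detection stayed at 36 members. At 10 CPM in both libraries 34 members were detected, and with reads on either strand 31. Without the let-7 family in the total the share was 10.8%, and without Mir487b it was 5.75%. Reads on either strand lowered the members at least 2-fold higher in replicate 1 from 4 to 2, since Mir299a and Mir380 then have no count, and raised the share of the 5 most abundant members to 78.0%. That share was 69.7% without Mir487b. At 1.5-fold, chosen after seeing the data, 8 members were higher in replicate 1 and 2 in replicate 2. The share of all genes at 1.5-fold is not given, so these counts cannot be read against it. The median log2 ratio stayed between -0.32 and -0.27 under the other scalings, minimums and added counts tried. Without a library no ratio exists. A pair of animals with 1 library each gives no estimate of variation for a single gene beyond these 2 values.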

Other observations

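In global alignments over the 741 pairs of members, the 4 most alike pairs of hairpins differed in how close their levels were. The first was Mir376b and Mir376c, with 82.6% identity, at 219 ± 48.9 and 451 ± 4.6 CPM. Mir543 and Mir382 were 76.3% identical, and stood at 441 ± 57.2 and 17768 ± 1175 CPM (SD, n = 2). Mir411 and Mir758 were 75.6% identical, at 6238 ± 478 and 33.0 ± 6.22 CPM. Mir300 and Mir381, at 74.7%, were close in level, with 983 ± 134 and 775 ± 183 CPM.

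Some arms share their seed with a mature mouse microRNA outside the cluster. The seed of miR-410-3p, AUAUAAC, is also that of miR-344d-3p and miR-344e-3p, and the seed of miR-329-3p, ACACACC, is that of miR-362-3p. In the hairpins, the word UACUUG was found in 10 of 36 members (27.8%), beside 26 of all 1005 RefSeq hairpins (2.59%). It was picked as one of the most frequent 6-base words of these members.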
